A study of Mus musculus with 6 samples.

Results

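3T3-L1 adipocytes that had received AICAR were compared with 3T3-L1 adipocytes that had received adenine, both at 0.5 mM. The comparison rests on 2 of the 6 arrays in the series, 1 per compound. Genes with 1 symbol in the array annotation were each represented by their brightest probe set (highest 6-array mean), and a gene was kept when that mean reached the median over all genes. This kept 9969 of 19938 genes above a floor of 5.87 on the log2 scale. Hs3st4 lay just inside the floor with a mean of 5.872 and Gm10364 just outside it with 5.8718.

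3T3-L1 is an established mouse fibroblast line that turns into lipid-storing cells under a hormone mixture. The adipocytes were made by 3 days in induction medium with IBMX, insulin and dexamethasone, followed by 3 days in medium with insulin alone. The AICAR culture and the adenine culture held their compound only during the 3 induction days, so both were measured 3 days after the compound had been withdrawn. The untreated adipocyte culture went through the same schedule, and its title names no treatment while its characteristics give it as the control. Undifferentiated fibroblasts were measured after 3 days with 0.5 mM AICAR, after 3 days with 0.5 mM adenine, and untreated. All cultures came from 1 cell line, each of the 6 conditions has a single array, and no spread between cultures can be given. No test or p-value is therefore reported, and a difference between 2 arrays below cannot be told apart from a difference between 2 cultures treated alike.

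Adenine is a purine base, which adenine phosphoribosyltransferase (Aprt) turns into AMP. AICAR is a ribonucleoside, so it carries a sugar that adenine lacks and an imidazole ring in place of the purine, and adenosine kinase (Adk) phosphorylates it to ZMP, an AMP analogue that activates the AMP-activated protein kinase (AMPK). AMPK senses low cellular energy, restrains fatty acid and sterol synthesis and is known to oppose adipocyte differentiation when active early in that process. Differentiation itself runs through the C/EBP factors and PPARgamma, which switch on the genes of lipid storage while genes of the fibroblast matrix and cytoskeleton are turned down.

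The labels call every array's cell type fibroblasts and mark the adipocytes under cell subtype. All 9 adipocyte markers measured were higher in each adipocyte array than in any fibroblast array, by 0.19 (Lpl) to 6.44 (Cd36) on the log2 scale. The array medians over all probe sets lay between 5.41 and 5.49. A level here is the deposited log2 signal and a difference is AICAR minus adenine, so a difference of 1 is 2-fold. Levels are compared between arrays for 1 gene and never between genes. Bulk RNA cannot tell fewer cells of a type from less RNA per cell.

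Across the 9969 genes the differences centred on -0.03, with a robust SD across genes (from the median absolute deviation) of 0.27. At 2-fold or more, 220 genes (2.21%) were higher with AICAR than with adenine and 121 (1.21%) were lower. At 4-fold or more the counts were 25 (0.251%) and 11 (0.11%). The higher side held genes of the cytoskeleton, the matrix, interferon responses and chemokines. The lower side held genes of fat cell identity, lipid assembly and sterol synthesis.

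Ppef1, a calcium-binding protein phosphatase, had the largest higher difference. Its level was 6.41 in AICAR adipocytes, 3.09 in adenine adipocytes and 4.84 in untreated adipocytes, a 9.97-fold difference between the compounds (log2 3.32). The adenine level lay far below the floor, where the size of a fold depends on how the background was handled. Acta2, the smooth muscle actin of contractile fibroblasts, was at 9.19 with AICAR, 6.03 with adenine and 7.24 untreated, 8.94-fold apart. For both genes the untreated culture lay between the compounds, and both compounds were over 1 log2 unit away from it on opposite sides.

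Ccl2, the chemokine that attracts monocytes, was at 8.03 with AICAR, 5.27 with adenine and 6.29 untreated (6.79-fold). The interferon-induced Ifit1 was at 8.05 with AICAR, 5.21 with adenine and 4.75 untreated (7.16-fold). Npy1r, a neuropeptide Y receptor, was at 7.65 with AICAR, 5.17 with adenine and 7.57 untreated (5.56-fold). These 3 genes show the patterns found on the higher side. Ifit1 was high with AICAR alone, Npy1r was low with adenine alone, and Ccl2 stood apart from the control in both directions.

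Thrsp, a lipogenic gene known as Spot 14, had the largest lower difference. Its level was 7.23 in AICAR adipocytes, 10.31 in adenine adipocytes and 9.89 in untreated adipocytes, 8.49-fold lower with AICAR (log2 -3.09). Mrap, the accessory protein that lets melanocortin receptors reach the cell surface, was at 6.55 with AICAR, 9.51 with adenine and 8.32 untreated (7.75-fold lower). Resistin (Retn), a hormone made by mouse fat cells, was at 9.38 with AICAR, 12.13 with adenine and 10.50 untreated (6.74-fold lower). All 3 were below the control with AICAR and above it with adenine. In fibroblasts the same genes stayed between 4.48 and 5.31 in the AICAR and adenine cultures, under the floor.

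The 25 genes with the largest higher differences ranged from Ppef1 down to Pi15, a peptidase inhibitor (log2 1.99). They included the chemokine Ccl7 (2.63), the long pentraxin Ptx3 (2.47), the lymphatic growth factor Vegfd (2.43), the vitamin D receptor Vdr (2.31), thrombospondin Thbs1 (2.29), the mesenchymal factor Osr1 (2.22) and the small proteoglycan Ogn (2.06). Of these 25, 10 were below the floor in the adenine array. Their median difference from the untreated adipocytes was 1.00 with AICAR and -1.47 with adenine. The neighbouring genes Clca3a1 (2.43) and Clca3a2 (2.10) are close paralogs, as are Trim30a (2.05) and Trim30d (2.30), so each pair may share signal.

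The 25 genes with the largest lower differences ran from Thrsp to Cidec, a lipid droplet protein (log2 -1.50). They included Hsd11b1, which regenerates active glucocorticoid (-2.09), G0s2, which inhibits the lipase Pnpla2 (-2.08), the glutamate transporter Slc1a3 (-2.16), alanine aminotransferase Gpt (-1.86) and alkaline phosphatase Alpl (-1.75). None of the 25 was below the floor in the AICAR array. Their median difference from the untreated adipocytes was -0.37 with AICAR and 1.55 with adenine. The desaturases Scd1 (-1.63) and Scd3 (-2.02) are close paralogs, and Ang5 (-2.35) belongs to a ribonuclease family with near-identical members.

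**Figure D1:**
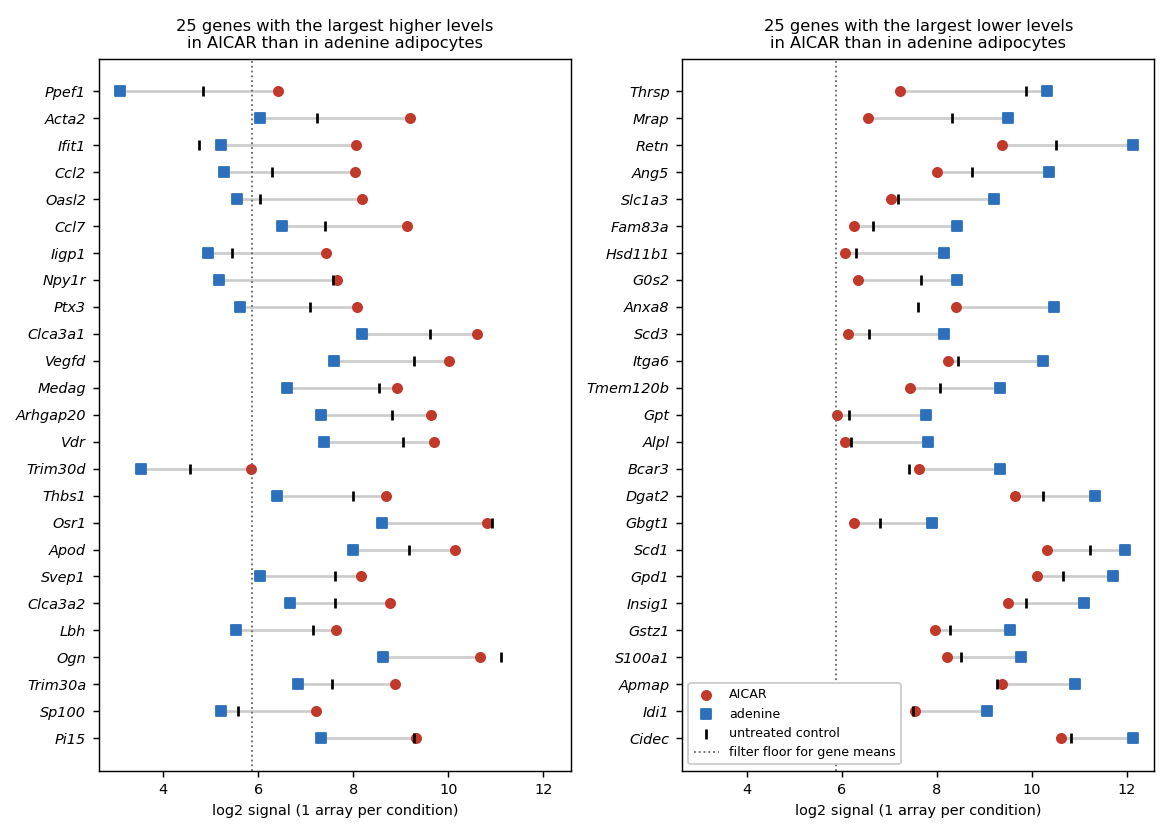
Log2 signal (horizontal axis) of the 25 genes with the largest higher differences (left) and the 25 with the largest lower differences (right), in AICAR (circles), adenine (squares) and untreated (ticks) adipocytes, 1 array each. The dotted line is the floor applied to gene means. The untreated level usually lies between the compounds, near AICAR for Npy1r and near adenine for Thrsp.

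Mature adipocyte markers were lower with AICAR than with adenine throughout. All 16 tested mature adipocyte markers were below 0, where 54.8% of all genes were, and 10 of the 16 were at least 2-fold lower. Their median was -1.17, and 0 were 2-fold higher. Adiponectin (Adipoq), the main fat cell hormone, was at 10.79 with AICAR, 12.18 with adenine and 10.64 untreated. The glycerol phosphate dehydrogenase Gpd1 was at 10.12 with AICAR, 11.72 with adenine and 10.66 untreated. Adipoq thus lay near the control with AICAR and above it with adenine, and lipoprotein lipase (Lpl) differed least of the 16 (-0.27).

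Among 16 genes of lipid droplets and lipolysis, 6 were at least 2-fold lower and the median was -0.68 (-0.40 without a filter and -0.39 under a 75th percentile filter). Hormone-sensitive lipase (Lipe) was at 9.69 with AICAR, 10.90 with adenine and 9.55 untreated. The droplet coat protein Plin1 was at 9.52 with AICAR, 10.52 with adenine and 9.52 untreated, and the seipin gene Bscl2 differed by -1.30. Plin2, the droplet coat protein of many cell types, ran the other way at 10.83 with AICAR, 10.41 with adenine and 10.34 untreated.

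All 13 tested genes of triglyceride assembly were below 0, with 4 at least 2-fold lower and a median of -0.69 (-0.19 without a filter). Dgat2, which adds the last fatty acid, was at 9.65 with AICAR, 11.34 with adenine and 10.23 untreated. Gpat3, which starts the pathway, was at 8.69 with AICAR, 10.18 with adenine and 8.34 untreated. De novo lipogenesis was less uniform, with 14 of 19 genes below 0, 3 past 2-fold and a median of -0.38 (-0.10 under the 75th percentile filter). Beside Thrsp, fatty acid synthase (Fasn) was at 10.00 with AICAR, 11.26 with adenine and 10.40 untreated. Acly, which supplies cytosolic acetyl-CoA, hardly differed (-0.01), and the elongase Elovl6 was higher with AICAR (0.35). Fatty acid uptake and binding genes were not shifted as a list, with a median of -0.05 and 4 of 11 above 0 (-0.27 under the 75th percentile filter).

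The transcription factors of adipogenesis differed less uniformly. Cebpa was 2.61-fold lower with AICAR than with adenine and near the untreated level. Pparg, the central adipogenic receptor, was at 9.95 with AICAR, 10.80 with adenine and 9.81 untreated. The early factors Cebpb (-0.16) and Cebpd (0.32) differed less, and the median of 16 adipogenic factors was -0.23 with 1 gene past 2-fold. The sterol regulatory factor Srebf1 differed by -0.41 and its relative Srebf2 by -0.14.

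Of 20 genes of cholesterol synthesis and uptake, 17 were below 0, 4 were at least 2-fold lower and the median was -0.71. The isomerase Idi1 was at 7.54 with AICAR, 9.06 with adenine and 7.51 untreated. Insig1, which retains the sterol sensor in the endoplasmic reticulum, was at 9.51 with AICAR, 11.09 with adenine and 9.88 untreated. Cyp51 (-1.22) and lanosterol synthase Lss (-1.10) were the other members past 2-fold. Ebp, a sterol isomerase, ran the other way at 0.23. The sterol regulatory element TCACNCCAC was found, on either strand, in the 250 bases before the start of 1 of 16 members with an entry in the RefSeq promoter table (Hmgcs1), against 1.22% of 27025 genes.

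All 32 tested genes of mitochondrial respiration were below 0 without any reaching 2-fold, and their median was -0.56. The isocitrate dehydrogenase subunit Idh3a was at 10.39 with AICAR, 11.38 with adenine and 10.54 untreated. The smallest difference of the 32 was in Ndufa1, a complex I subunit (-0.23). Fatty acid oxidation followed, with 16 of 18 genes below 0 and a median of -0.49. Echs1, an enoyl-CoA hydratase, differed by -1.06. Acaa2, a thiolase, differed by 0.05. Cpt1a, the gate for long-chain fatty acids into mitochondria, was the only member at least 2-fold higher, at 8.25 with AICAR, 7.24 with adenine and 8.19 untreated (log2 1.01).

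**Figure D2:**
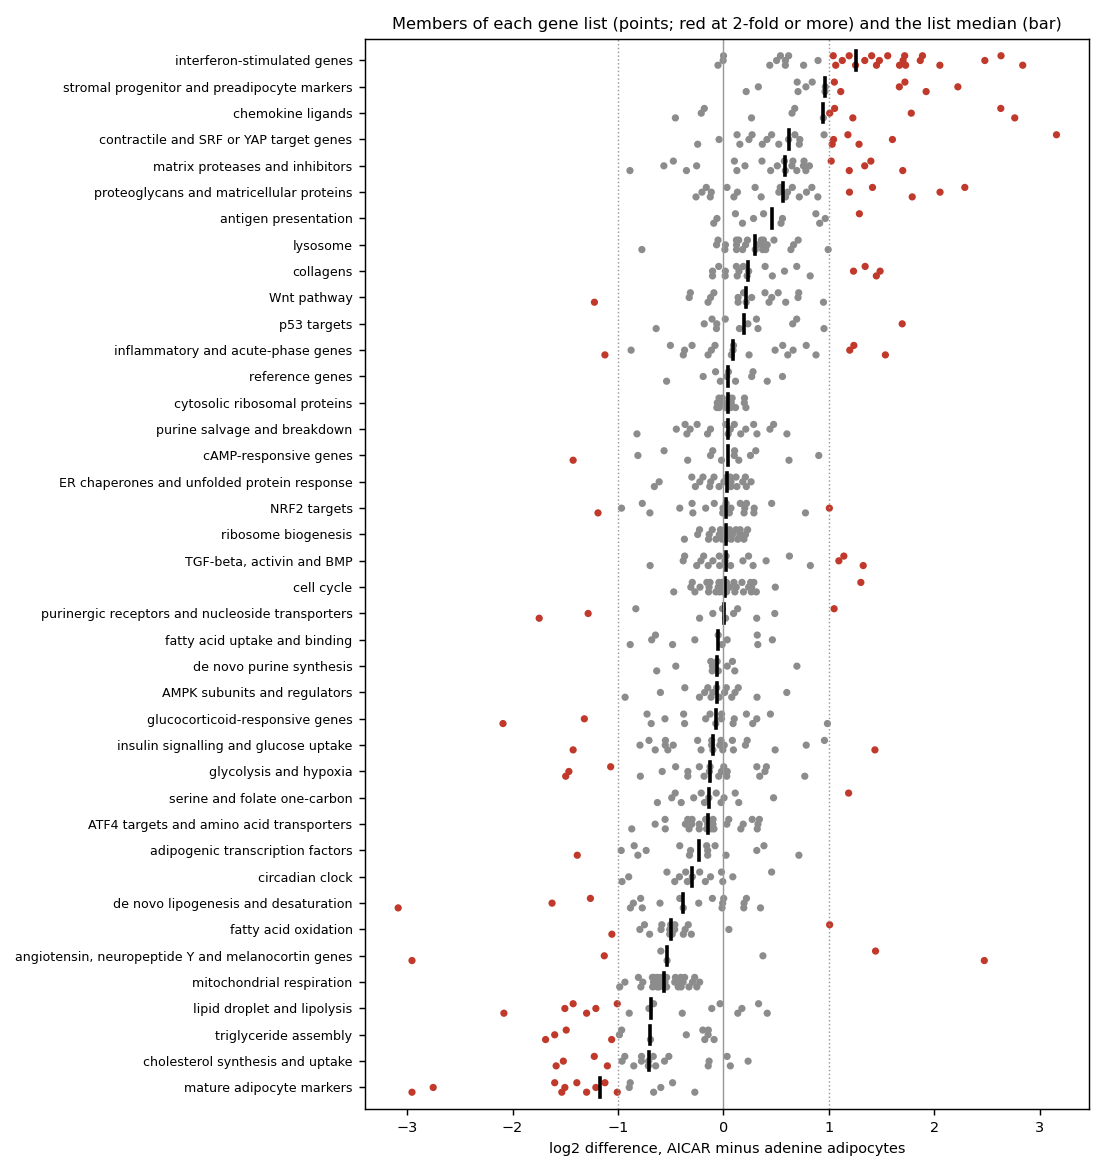
Log2 difference, AICAR minus adenine adipocytes (horizontal axis), for each tested member (points) of 40 gene lists, with the list median as a bar. Red points are 2-fold or more. Interferon, stromal and chemokine lists sit at the top with medians from 0.95 to 1.25, and mature adipocyte markers at the bottom with -1.17.

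Genes of stromal progenitors were higher with AICAR than with adenine. All 14 tested members were above 0, where 45.2% of all genes were, 6 were at least 2-fold higher and the median was 0.97. The transcription factor Osr2 was at 8.21 with AICAR, 6.29 with adenine and 8.07 untreated. Thy1, a fibroblast surface protein, was at 8.37 with AICAR, 6.70 with adenine and 8.30 untreated. Dlk1, the preadipocyte protein that inhibits differentiation, was at 10.11 with AICAR, 8.99 with adenine and 10.32 untreated. In these 3 genes AICAR lay within 0.3 of the untreated level and adenine at least 1.3 below it, which did not hold for every member. Pdgfra was at 10.64 with AICAR, 9.94 with adenine and 11.51 untreated. Of the 14 genes, 11 were below the untreated level with AICAR, 1 of them at least 2-fold. With adenine all 14 were below it, 10 of them at least 2-fold.

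Matrix genes showed the same order in part. Of 20 collagens 17 were above 0 and 4 at least 2-fold higher, with a median of 0.23 (0.58 under the 75th percentile filter). The 4 were Col12a1 (1.49), which associates with collagen fibrils, and the fibrillar collagen genes Col3a1, Col1a1 and Col1a2 (1.23). Col1a1 was at 11.00 with AICAR, 9.65 with adenine and 11.40 untreated. Col3a1 was at 11.37 with AICAR, 9.92 with adenine and 11.55 untreated. The basement membrane gene Col4a1 differed little (0.19).

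Proteoglycans and matricellular proteins had a median of 0.56, with 5 of 24 genes at least 2-fold higher. Postn, which binds collagen, was at 10.48 with AICAR, 8.69 with adenine and 10.99 untreated. Decorin (Dcn) differed by 1.41 and fibronectin (Fn1) by 1.20. Matrix proteases and inhibitors had a median of 0.59, with 5 of 25 genes at least 2-fold higher. The inhibitor Timp2 was at 11.04 with AICAR, 9.34 with adenine and 11.09 untreated. The protease Adam12 went the other way (-0.89).

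The contractile genes and targets of SRF and YAP, factors that respond to actin and cell tension, had a median of 0.62. Of 21 genes 19 were above 0 and 6 at least 2-fold higher. Calponin Cnn2 was at 9.55 with AICAR, 7.94 with adenine and 9.54 untreated. Zyxin (Zyx) was at 8.58 with AICAR, 7.30 with adenine and 8.40 untreated. Acta2 was the only member at least 2-fold above the control with AICAR. Markers of other mesenchymal cells were measured beside these genes, and their part in the result was not tested. The summed linear signal of 15 skeletal muscle markers was 665 with AICAR, 634 with adenine and 664 untreated. That of 10 cartilage and bone markers was 736 with AICAR, 693 with adenine and 789 untreated. This last sum joins opposite differences. Sox9 was at 8.57 with AICAR, 7.69 with adenine and 8.68 untreated, and Alpl at 6.07 with AICAR, 7.82 with adenine and 6.19 untreated.

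The CArG box, the motif that SRF binds, was searched on both strands in the 250 bases before the start of each gene in the RefSeq promoter table (GRCm38.p6). It was present in 5 of the 21 contractile genes (Cnn2, Fhl2, Myl9, Srf and Vcl), a share of 23.8%, against 1.62% of 27025 genes. A match is a description of these letters only. The Cnn2 window is shown since Cnn2 had the largest difference of the 5. It lies at chr10:79988350-79988599 on the plus strand, with the CArG box in capitals.
Cnn2: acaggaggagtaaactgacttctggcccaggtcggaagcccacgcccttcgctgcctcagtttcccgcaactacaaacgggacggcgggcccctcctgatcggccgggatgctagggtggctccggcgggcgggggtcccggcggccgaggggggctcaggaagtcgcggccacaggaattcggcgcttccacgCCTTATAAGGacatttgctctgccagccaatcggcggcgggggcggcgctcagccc
Vcl (-0.04) and Srf (0.13) also hold the motif and hardly differed.

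Interferon-stimulated genes had the median farthest from 0 among the 40 lists as filtered here, though not under a 75th percentile filter, where chemokines exceeded them, or where both arrays had to reach the floor, where their median was 0.90 and mature adipocyte markers lay farther from 0. Of 31 tested genes 29 were above 0, 20 were at least 2-fold higher with AICAR than with adenine and 0 were 2-fold lower, with a median of 1.25. Oasl2, a relative of the viral RNA sensors, was at 8.18 with AICAR, 5.55 with adenine and 6.03 untreated. The GTPase Iigp1 was at 7.42 with AICAR, 4.94 with adenine and 5.45 untreated. Mx2, an antiviral GTPase, was at 6.21 with AICAR, 4.32 with adenine and 4.21 untreated. For these genes the adenine and untreated arrays lay near each other and the AICAR array above both. Only 17 members had both compared arrays at or above the floor, and the folds of the rest depend on background handling. Iigp1, for example, passed the filter on its 6-array mean with fibroblast levels of 8.46 with AICAR, 8.13 with adenine and 8.29 untreated. Oasl1 and Ifi27l2a had nearly equal levels with both compounds, and Irf1 differed by -0.05.

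The interferon-stimulated response element, searched as GAAA, any 2 bases, GAAA, was found on either strand in the 250 bases before the start of 10 of the 23 members that have a promoter entry (43.5%), against 3.46% of 27025 genes. Among the 8067 tested genes with an entry the share was 3.01%, and a match is a description of these letters only. Promoters are shown for members that carry the element, in GRCm38.p6, with each match in capitals (here it reads TTTC, 2 bases, TTTC, from the opposite strand). The Ifit1 window is chr19:34640639-34640888 (plus strand), the Ifit3 window chr19:34583279-34583528 (plus strand) and the Trim30a window chr7:104465194-104465443 (minus strand).
Ifit1: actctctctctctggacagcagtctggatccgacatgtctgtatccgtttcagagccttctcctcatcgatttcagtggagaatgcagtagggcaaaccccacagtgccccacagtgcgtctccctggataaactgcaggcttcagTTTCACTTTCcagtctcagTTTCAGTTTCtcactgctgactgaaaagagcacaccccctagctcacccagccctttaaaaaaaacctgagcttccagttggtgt
Ifit3: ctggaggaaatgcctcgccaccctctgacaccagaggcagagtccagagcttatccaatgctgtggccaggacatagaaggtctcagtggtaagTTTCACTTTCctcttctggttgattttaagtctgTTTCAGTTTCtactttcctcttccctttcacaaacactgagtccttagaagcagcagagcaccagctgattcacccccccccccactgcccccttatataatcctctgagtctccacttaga
Trim30a: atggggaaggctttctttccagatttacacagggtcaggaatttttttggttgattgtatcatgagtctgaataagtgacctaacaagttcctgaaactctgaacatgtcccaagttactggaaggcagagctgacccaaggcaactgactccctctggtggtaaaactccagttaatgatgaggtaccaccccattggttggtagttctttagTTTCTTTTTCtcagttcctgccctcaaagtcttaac
The Ifit1 and Ifit3 windows hold 2 matches each and the Trim30a window 1. Oasl2, Xaf1 and Ifit2 were more than 2-fold higher with AICAR and hold no match in this window, while Oas1a holds one and differed by 0.50.

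Of 13 chemokine ligands 10 were higher with AICAR, and 6 passed 2-fold. The list median was 0.95, with a range from 0.22 without a filter to 1.78 under the 75th percentile filter. Ccl7 was at 9.13 with AICAR, 6.49 with adenine and 7.41 untreated. Ccl5, a T cell attractant, was at 8.40 with AICAR, 6.62 with adenine and 6.86 untreated. Cxcl12, a constitutive stromal chemokine, differed by 0.27, and Cxcl13 by -0.18. The wider list of inflammatory and acute-phase genes had a median of 0.09. Within it the cytokine Csf1 (1.54), cyclooxygenase Ptgs2 (1.24) and adhesion molecule Vcam1 (1.20) were higher, and Orm1, an acute-phase protein of fat cells, was lower (-1.12). Antigen presentation genes had a median of 0.46 (0.18 without a filter), with 1 of 12 past 2-fold.

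Leukocyte markers were measured beside these genes. Of 17 leukocyte markers on the array 3 passed the filter. The summed linear signal of all 17, most of them under the floor, was 501 with AICAR, 402 with adenine and 463 untreated. The defining marker Ptprc was at 4.32 with AICAR, 4.20 with adenine and 4.24 untreated, under the floor throughout. Lyz2, a macrophage lysozyme gene, had the largest difference of the 17. It was at 5.57 with AICAR, 3.81 with adenine and 5.32 untreated, under the floor in every adipocyte array. It passed the filter through fibroblast levels of 7.10 with AICAR, 8.12 with adenine and 7.99 untreated. Adgre1 (-0.24), Fcer1g (-0.18), Itgax (-0.11) and Tyrobp (-0.09) ran the other way. The floor was reached by 2 markers with AICAR, Cd68 only just (5.877), against 0 with adenine and 0 untreated. The part of other cells in the interferon and chemokine values was not tested.

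Each compound was also set against the untreated adipocytes. Both differences use the same control array, so no overlap between them is given. AICAR minus control had 61 genes at least 2-fold higher (0.612%) and 38 lower (0.381%), and adenine minus control had 124 higher (1.24%) and 239 lower (2.4%). Mature adipocyte markers had a median of 0.00 with AICAR, with 3 of 16 at least 2-fold lower. With adenine it was 1.11 (0.90 without a filter), with 10 of 16 at least 2-fold higher. Stromal genes had a median of -0.21 with AICAR and -1.33 with adenine (-0.76 without a filter), and mitochondrial respiration 0.05 with AICAR and 0.60 with adenine. Interferon-stimulated genes showed the reverse allocation, with a median of 1.29 with AICAR, where 22 of 31 were at least 2-fold higher, and 0.10 with adenine, where 1 was. The AICAR median was 0.96 over the 14 members with both the AICAR and the control array at or above the floor.

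Some fat cell genes lay below the control with AICAR, apart from their list. Thrsp was at -2.66 with AICAR and 0.43 with adenine, relative to the untreated culture. Mrap was at -1.76 with AICAR and 1.19 with adenine, and G0s2 at -1.34 with AICAR and 0.75 with adenine. Car3, a carbonic anhydrase abundant in fat, was below the control with both compounds, with levels of 8.05 with AICAR, 9.34 with adenine and 10.17 untreated.

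**Figure D3:**
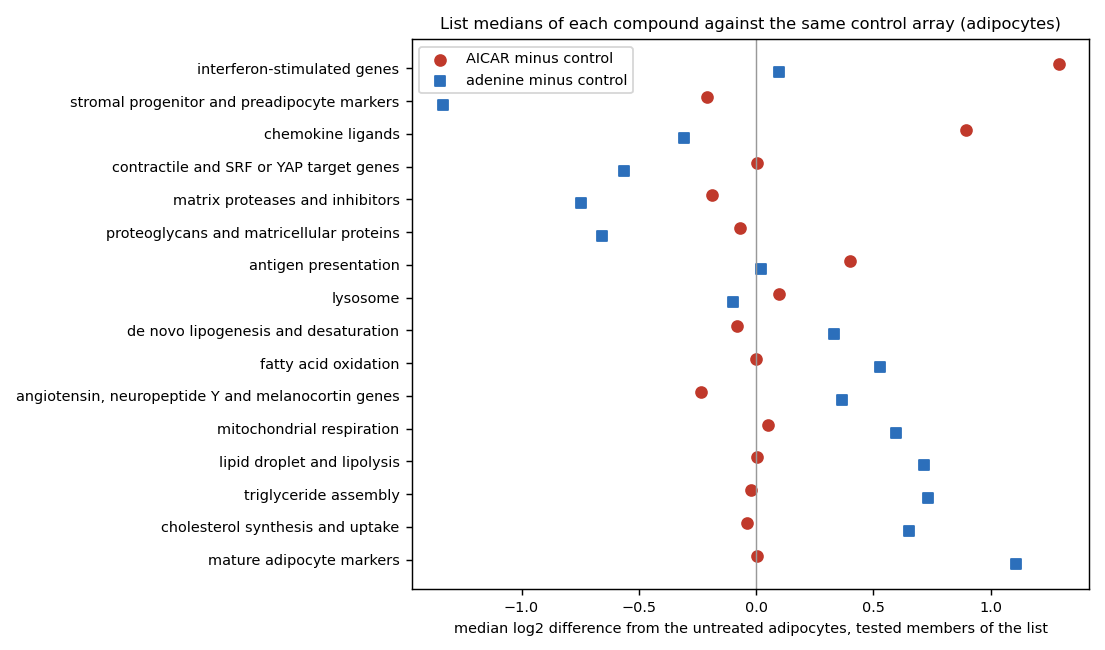
Median log2 difference from the untreated adipocytes (horizontal axis) over the tested members of each list whose AICAR minus adenine median was at least 0.3 from 0, for AICAR (circles) and adenine (squares). The same control array serves both. Fat cell, lipid and mitochondrial lists lie near 0 with AICAR and above 0 with adenine, and the interferon list lies at 1.29 with AICAR and 0.10 with adenine.

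The lists of AMPK genes and of purine enzymes differed little. AMPK subunits and regulators had a median of -0.06 and 0 of 17 genes reached 2-fold, with the adaptor Cab39 lowest (-0.93) and the subunit Prkab2 highest (0.60). De novo purine synthesis had a median of -0.06 in 11 genes and purine salvage 0.05 in 19, with 0 past 2-fold in either list. Among all genes 2.21% were at least 2-fold higher and 1.21% lower, so a count of 0 in lists this short says little. Aprt was at 7.81 with AICAR, 7.60 with adenine and 7.74 untreated. Adk was at 8.35 with AICAR, 8.28 with adenine and 8.52 untreated. Hprt, which salvages other purine bases, was at 9.34 with AICAR, 9.70 with adenine and 9.23 untreated. Among 12 purinergic receptors, ectonucleotidases and nucleoside transporters, 1 was at least 2-fold higher and 2 lower, against 2.21% and 1.21% of all genes. Slc29a1, which carries nucleosides into cells, was at 8.88 with AICAR, 7.83 with adenine and 8.95 untreated, and Entpd5 (-1.28) and Alpl (-1.75) were lower. The insulin signalling list had a median of -0.10, with Pde3b, the phosphodiesterase of the antilipolytic response, at -1.43 and the receptor adaptor Grb14 at 1.44.

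The same compounds were compared in fibroblasts at the same dose and exposure time, but measured without a withdrawal period. There 159 genes were at least 2-fold higher with AICAR (1.59%) and 388 lower (3.89%). Of the 220 genes higher in adipocytes, 13 were also higher in fibroblasts (5.91% of 220 and 8.18% of 159) and 56 were lower there (25.5% of 220 and 14.4% of 388). Of the 121 lower in adipocytes, 5 were also lower in fibroblasts (4.13% of 121 and 1.29% of 388) and 6 were higher there (4.96% of 121 and 3.77% of 159). Across the 9969 genes, which are no independent replicates, Pearson's r between the differences was -0.107 and Spearman's rank coefficient -0.039. The comparisons share no array.

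Arhgap20 showed the largest contrast among the named genes. It was at 9.63 with AICAR and 7.31 with adenine in adipocytes, and at 5.75 with AICAR and 9.30 with adenine in fibroblasts. Apod, a lipid-binding apolipoprotein, was at 10.15 with AICAR and 7.99 with adenine in adipocytes, and at 8.75 with AICAR and 11.93 with adenine in fibroblasts. The glycolytic regulator Pfkfb3 ran the opposite way, at 6.53 with AICAR and 7.99 with adenine in adipocytes and 7.85 with AICAR and 5.85 with adenine in fibroblasts. Sterol genes had medians of -0.71 in adipocytes and 0.58 in fibroblasts, and stromal genes 0.97 in adipocytes and -0.80 in fibroblasts. Without a filter the fibroblast median of the stromal genes was -0.16, less than 0.3 from 0. Mitochondrial respiration was below 0 in both, at -0.56 in adipocytes and -0.30 in fibroblasts. Fatty acid oxidation was also below 0 in both, at -0.49 in adipocytes and -0.42 in fibroblasts, where 17 of 18 genes were below 0. Interferon-stimulated genes were above 0 in both, at 1.25 in adipocytes and 0.38 in fibroblasts (0.10 under the 75th percentile filter). In fibroblasts 2 of 31 were at least 2-fold higher.

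**Figure D4:**
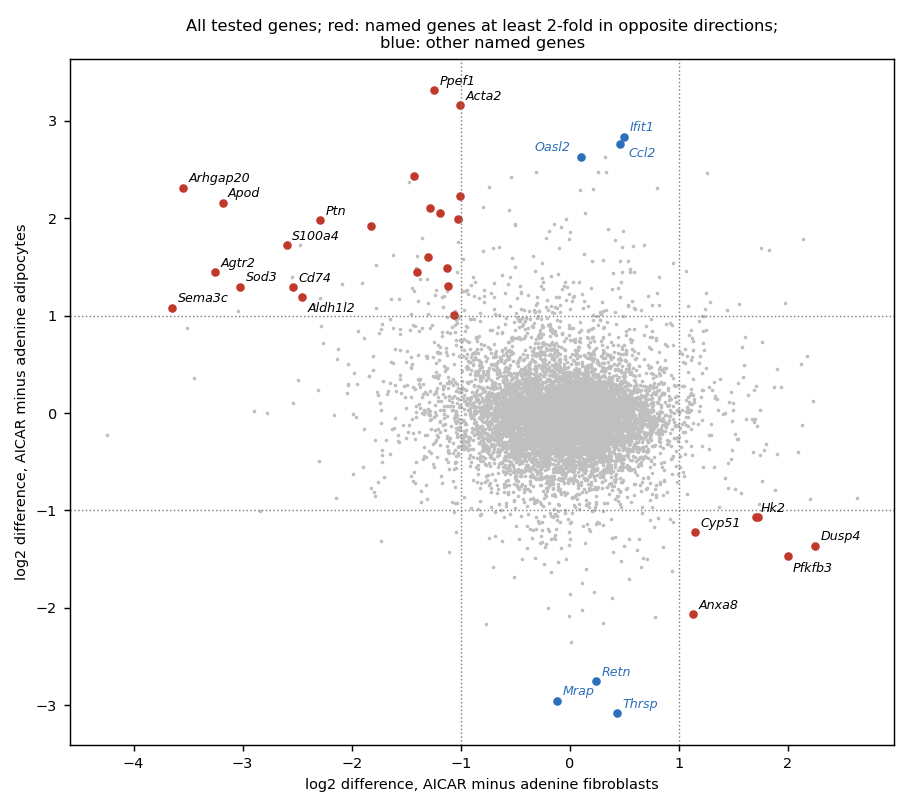
AICAR minus adenine in adipocytes (vertical axis) against AICAR minus adenine in fibroblasts (horizontal axis), log2, for the 9969 tested genes (grey). Red points are named genes at least 2-fold apart in opposite directions, blue points other named genes, and dotted lines mark 2-fold. Ifit1, Ccl2, Thrsp, Mrap and Retn differ by under 0.5 in fibroblasts.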

How the data were processed

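Total RNA was labelled with whole-transcript kits for Affymetrix arrays, per the labels' protocols. Log2 signals of 35556 probe sets were deposited. The submitters' processing notes name Transcriptome Analysis Console 1.0.0.234 and the build mm10. How background was corrected, arrays were normalized and probes were summarised is not given in the sources used, so values were used as deposited, and no detection calls were used.

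In the platform annotation, 21789 probe sets carry 1 symbol and were used, whereas 1621 with several symbols and 12146 without one were left out. Of these, 21698 matched the RefSeq gene table and 0 symbols differed. Of 19938 symbols, 999 had several probe sets. Log2 values of single arrays were subtracted (Python 3.11.15, pandas 2.3.3), with no test possible. The counting was tested on simulated data. The comparison, members, 45 gene lists (40 with at least 5 tested members), motifs and printed promoters were chosen with earlier results of these data known, and lists share some members. Lists were described as shifted at a median of 0.3 or more from 0. The genes named were the 25 largest differences each way, the 4 highest and 4 lowest members of each described list, Aprt, Adk, Hprt and the adipocyte label markers, and the 8 each way with the largest opposite differences in fibroblasts. Other list members, and the holders of a motif, were named after their values were seen. Predicted genes, small RNAs and chemosensory receptors were passed over. The number of arrays limits the precision. Alternatives were quantile normalization, median centring, no filter, a 75th percentile filter, both arrays at the floor, the mean of all probe sets and a 1.5-fold threshold.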

Additional observations from a re-analysis of the deposited data

Results flagged for a closer look

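Some genes were at least 2-fold apart between the compounds in opposite directions in adipocytes and in fibroblasts. Part of the genes listed here were picked for that contrast. Each value here is the AICAR minus adenine log2 difference in adipocytes less that in fibroblasts. With 1 array per condition these contrasts were not tested. Several rest on levels under the floor, whose size depends on background handling. Examples are Cd74 (4.62 in adenine adipocytes and 4.46 in AICAR fibroblasts) and Agtr2 (4.42 in AICAR fibroblasts). Fam110c (4.70 in adenine fibroblasts) and Ppef1 (3.09 in adenine adipocytes) are others.

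Genes higher with AICAR in adipocytes and lower with AICAR in fibroblasts included the cytoskeletal and signalling genes Arhgap20 (5.86), Ppef1 (4.56), Acta2 (4.17) and Cnn2 (2.9). Secreted and matrix genes of this kind were Apod (5.34), the guidance factor Sema3c (4.73), the extracellular superoxide dismutase Sod3 (4.32), the heparin-binding growth factor Ptn (4.27), Ogn (3.25), Pi15 (3.02), Col3a1 (2.86) and Col12a1 (2.62). The angiotensin receptor Agtr2 stood at 4.7, S100a4 at 4.32, Clca3a1 at 3.86 and Clca3a2 at 3.38. The mesenchymal factors Osr2 and Osr1 stood at 3.74 and 3.24, the invariant chain Cd74 at 3.83, the mitochondrial folate enzyme Aldh1l2 at 3.65, the cyclin Ccnd1 at 2.42 and Cpt1a at 2.07.

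Genes lower with AICAR in adipocytes and higher with AICAR in fibroblasts were the phosphatase Dusp4 (-3.61), Pfkfb3 (-3.46), the annexin Anxa8 (-3.2), Fam110c (-2.79), hexokinase Hk2 (-2.77) and Cyp51 (-2.38). Lists whose medians were shifted in opposite directions were stromal progenitor genes (1.77), proteoglycans and matricellular proteins (1.17), matrix proteases and inhibitors (1.04) and cholesterol synthesis and uptake (-1.29). For the stromal genes this was lost without a filter, where the fibroblast median was -0.1573, less than 0.3 from 0.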

How the results depend on the processing

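No paired analysis was possible because each condition has 1 array and no test was run. No replicate can be left out for the same reason, and levels under the floor depend on the unstated background correction. All 1932 values of named genes under the alternatives stayed within 0.5 log2 units of the reported value, and 224 list medians of the main comparison within 0.2. For the named genes this outcome was largely fixed in advance. The filters drop genes without changing a gene's difference, and median centring shifts all genes alike. Averaging probe sets alters only genes that have several. With quantile normalization and median centring the list medians kept within 0.2, and the median of all genes was 0.01 and -0.04 against -0.03 as reported. Without a filter the median was -0.893 for mature adipocyte markers, -0.4016 for lipid droplets, -0.1949 for triglyceride assembly, 0.7043 for stromal genes, 0.2248 for chemokines and 0.181 for antigen presentation. It took the opposite sign for the angiotensin, neuropeptide Y and melanocortin genes, at 0.0085 in adipocytes (-0.53 with the filter) and 0.0401 in fibroblasts, and for purinergic genes in fibroblasts (0.0304). The fibroblast stromal median was then -0.1573. With the 75th percentile filter, under which fewer genes are tested, 48 genes were 2-fold lower, and the medians were -0.3901 for lipid droplets, -0.2709 for fatty acid uptake, -0.1043 for lipogenesis, 0.5797 for collagens, 1.7824 for chemokines and -0.0898 for the Wnt pathway, whose sign turned. Fibroblasts then had 65 genes higher and 215 lower, adenine minus control 54 higher, and AICAR minus control 29 higher and 16 lower. With both arrays at the floor, the medians were 0.6075 for chemokines and 0.898 for interferon-stimulated genes. AICAR minus control then had 31 genes higher and an interferon median of 0.9568. At 1.5-fold, 592 genes were higher and 536 lower with AICAR than with adenine. Unless fewer tested genes account for a value by construction, the cause was not tested.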

Other observations

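Some gene groups outside the accounts above are given here for AICAR against adenine adipocytes. Lysosomal genes were above 0 in 22 of 25 cases, where 45.2% of all genes were, with a median of 0.30. Past 2-fold there were 0, against 2.21% of all genes higher and 1.21% lower. In fibroblasts the lysosomal median was -0.28, with 19 of 25 below 0. The collagen-degrading protease Ctsk was at 6.96 with AICAR, 5.97 with adenine and 6.35 untreated, and Tfeb, a regulator of lysosomal genes, was lower at 6.41 with AICAR, 7.19 with adenine and 6.66 untreated. Circadian clock genes were below 0 in 13 of 15 cases, where 54.8% of all genes were. Their adipocyte median of -0.29 was less than 0.3 from 0, the distance at which a list is described as shifted. In fibroblasts it was 0.52 (0.81 under the 75th percentile filter). Bhlhe40, a clock repressor, differed by -0.96 in adipocytes and 1.37 in fibroblasts.

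Cell cycle genes had a median of 0.01 in adipocytes and -0.52 in fibroblasts. Cyclin D (Ccnd1) was the only 1 of the 33 past 2-fold in adipocytes, at 8.58 with AICAR, 7.27 with adenine and 8.85 untreated. Plk2, a stress-responsive kinase among 14 p53 targets, was at 8.28 with AICAR, 6.59 with adenine and 7.59 untreated, while the list median was 0.19. Follistatin (Fst, 1.10), Fstl1 (1.33) and the BMP target Id3 (1.14) were the members of the TGF-beta, activin and BMP list at least 2-fold higher, and its median was 0.02. The Wnt transcription factor Lef1 differed by -1.22 in a list whose median was 0.22, and -0.09 under the 75th percentile filter, where its sign turned. Heme oxygenase (Hmox1) differed by 1.01 and transaldolase (Taldo1) by -1.19 among NRF2 targets with a median of 0.03. Cytosolic ribosomal proteins had a median of 0.05 in adipocytes, with 0 of 16 past 2-fold, against 2.21% of all genes higher and 1.21% lower.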
